A study of Mus musculus with 15 samples.

Results

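The comparison described here sets 1 array of a pre-cDC sample titled Spl against the 2 arrays of pre-cDC titled BM, which are 3 of the 15 arrays of the series. Pre-cDC are precursors of classical dendritic cells. All 3 samples came from wild-type C57Bl/6 mice at steady state and were measured as total RNA on Affymetrix 3' expression arrays with biotin label. The labels do not spell out Spl: they list the cell type of that sample as bone marrow progenitor, as for the BM samples, and give it no gate of its own. For BM pre-cDC the labels give cells negative for propidium iodide, lineage markers, IL7R, MHC class II and CD16/32, low for CD117 and positive for CD135 and CD11c. The arrays were chosen by title. They were compared after quantile normalization of these 3 arrays, and as ranks within each array, because the Spl array has its own scale. The Spl side has no replicate. The labels do not say that the BM arrays came from separate animals. Every p-value below measures only the spread within pairs of progenitor arrays, of which the BM arrays are a pair. It holds no spread from the Spl side. The other arrays of the series are common myeloid (CMP), granulocyte-macrophage (GMP) and common dendritic cell progenitors (CDP), bone marrow cultures grown with GM-CSF or M-CSF, and bone marrow monocytes at 0, 24 and 48 hours of GM-CSF.

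Classical dendritic cells capture antigen in tissues and present it to T cells. They descend from bone marrow progenitors through the pre-cDC, which is known to leave the marrow with the blood, to seed lymphoid organs and other tissues and to divide there a limited number of times before it completes its differentiation. FLT3 and its ligand maintain this lineage, and the transcription factors PU.1, IRF8, IRF4, BATF3, ID2 and ZBTB46 mark or direct its steps. Dendritic cells can also mature, and then NF-kB activity raises costimulatory molecules such as CD80, CD83 and CD86, the chemokine receptor CCR7 and cytokines.

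The scales of the arrays differed before normalization. The deposited intensity had a median of 74.2 on the Spl array, against 16.7 and 17.4 on the BM arrays, and its 10th percentile was 19.7 on the Spl array, against 3.94 and 4.04 on the BM arrays. The upper ends lay closer together, with a 99th percentile of 4406 on the Spl array, against 3130.5 and 3082 on the BM arrays. No single factor therefore brings the arrays to 1 scale. The array, its processing and the group cannot be told apart on the Spl side, and this holds for every difference below. In bulk RNA, fewer cells of a type and less RNA per cell cannot be told apart either. All levels below are normalized intensities, and all differences are Spl minus the mean of the BM arrays on the scale of log2(normalized intensity + 32), which understates the change of dim genes. A gene is called dim where it lies under the median of all probe sets, a normalized intensity of 36.1. Across genes the log2 levels had a Pearson correlation of 0.994 between the BM arrays, and of 0.896 and 0.895 between the Spl array and each of them. Between the BM arrays 5 genes were 2-fold apart and 0 were 4-fold apart.

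**Figure D1:**
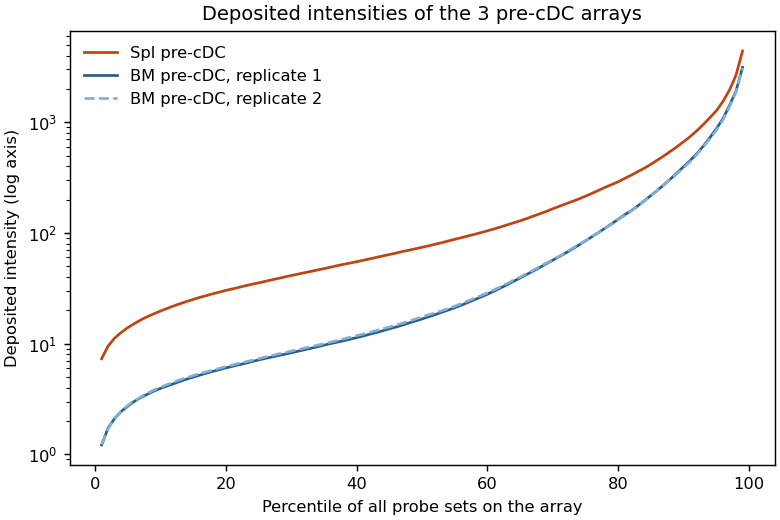
Deposited intensity (log axis) at each percentile of all probe sets, for the Spl array and the BM arrays. The Spl curve lies above both BM curves over the whole range, with medians of 74.2 on the Spl array and of 16.7 and 17.4 on the BM arrays, and the gap narrows toward the upper end.

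The genes of the sort markers were compared first, since they bear on the label. Flt3, which encodes CD135, stood at 2758 on the Spl array, against 1487 and 1641 on the BM arrays. Itgax, which encodes CD11c, stood at 1689 on the Spl array, against 1727 and 1799 on the BM arrays, a difference of -0.06. Zbtb46, a transcription factor of classical dendritic cells and their precursors, stood at 831 on the Spl array, against 469.7 and 523 on the BM arrays. These 3 genes were thus bright on every array. Flt3 was outside the range of the BM arrays by less than 2-fold (0.81), and so was Zbtb46 (0.71), but with the arrays scaled by their medians alone these differences were -0.78 and -0.66, and that of Itgax was -1.65. Cd209a, a lectin of dendritic cells, was level, at 3194 on the Spl array, against 2973 and 3024 on the BM arrays, but its difference was -1.50 with median scaling.

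Genes of markers that the gate excludes or limits were not all low in Spl. Kit, which encodes the stem cell factor receptor CD117, stood at 850.2 on the Spl array, against 65.5 and 64.9 on the BM arrays, a difference of 3.18. Its other probe set was near the median on the Spl array, at 40.4, and dim on the BM arrays, at 20.9 and 19.0, a difference of 0.48. Il7r, the interleukin 7 receptor chain of lymphoid cells, stood at 566 on the Spl array, against 58.8 and 51.03 on the BM arrays, and its other probe set differed the same way, at 378 on the Spl array and 23.3 and 23.5 on the BM arrays. Fcgr3, which encodes CD16, was dim on all 3 arrays, at 13.9 on the Spl array, against 16.4 and 26.5 on the BM arrays. Of the genes of MHC class II, which the BM gate excludes, H2-Ab1 stood at 7726 on the Spl array, against 4029.5 and 4541 on the BM arrays, so that transcripts of this complex were abundant in both groups. Flt3, Itgax, Zbtb46 and Cd209a were thus bright on all 3 arrays. Irf8 (-3.89) and Spib (-1.49), also genes of this lineage, were lower in Spl. The Spl sample has no gate of its own, and its label was not tested. Il7r was at least 4-fold higher in Spl on each of its probe sets, and Kit on 1 of 2.

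The Spl and BM arrays differed in many genes. Of 18193 genes, 228 were at least 4-fold higher in Spl and beyond both BM arrays (1.25%), and 293 were at least 4-fold lower (1.61%). At 2-fold the counts were 1164 higher (6.4%) and 1234 lower (6.78%). By rank the median percentile difference was 25.9 for the 228 higher and -31.6 for the 293 lower genes. All moved the same way by rank, which the rule fixes, since quantile normalization keeps the order of ranks. The split between higher and lower depends on the scaling: with the arrays scaled by their medians it was 102 higher against 1267 lower, and on the deposited intensities it was 972 higher against 115 lower. The median over all genes was -0.03 after quantile normalization, -0.23 after median scaling and 0.82 on the deposited intensities. Some lists of bright genes shifted more than all genes did: the median of the oxidative phosphorylation list was 0.00 after quantile normalization and -1.54 after median scaling, that of the MHC class II list 0.40 and -1.05, and that of the MHC class I list -0.26 and -1.69.

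A limma fit over the 9 wild-type progenitor arrays (CMP, GMP, CDP, BM pre-cDC and the Spl array), which takes its spread from the CMP, GMP, CDP and BM pre-cDC pairs and assumes that the lone Spl array varies like them, called 4210 genes higher (23.1%) and 4175 lower (22.9%) at an adjusted p under 0.05. Every gene of the 4-fold rule was among them, in the same direction. This is no independent support, since the fit uses the same Spl and BM arrays and takes no spread from the Spl side. With so many genes called, the size of a difference separates genes more than the call does, and the 4-fold rule is used below. Lists of genes are described by their counts and by their median, which can be read against -0.03 over all genes. Values with median scaling are to be read against a median of -0.23 over all genes. Under that scaling 102 of 18193 genes were 4-fold higher and 1267 were 4-fold lower.

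**Figure D2:**
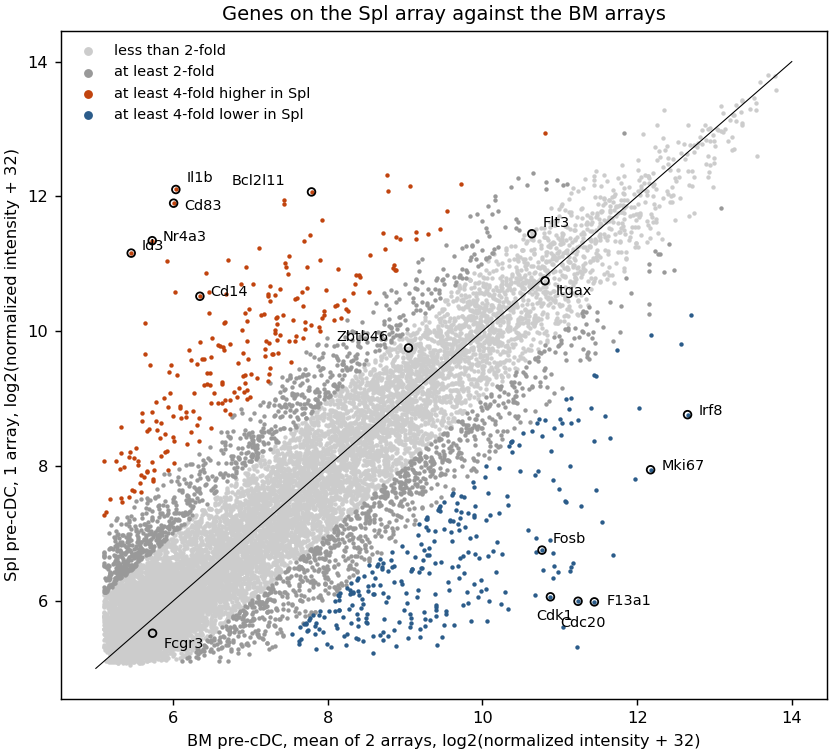
Level of each of 18193 genes on the Spl array (vertical axis) against the mean of the BM arrays (horizontal axis), both as log2(normalized intensity + 32). Genes 4-fold higher in Spl (228) are red and genes 4-fold lower (293) are blue. Il1b and Cd83 lie far above the line of equality, Cdk1, Cdc20 and F13a1 far below it, and Itgax on it.

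Most genes of mitosis were among the strongest differences, and all were lower in Spl. Of the 31 measured genes of the mitosis list, 29 met the 4-fold rule, all lower, and the median was -4.16. Cdk1, the kinase that drives entry into mitosis, stood at 34.8 on the Spl array, against 1798 and 1906 on the BM arrays, a difference of -4.82 (limma adjusted p = 1.5e-11). Cdc20, which activates the anaphase-promoting complex, stood at 31.8 on the Spl array, against 2479 and 2284 on the BM arrays (-5.24). Ube2c, the ubiquitin-conjugating enzyme of that complex, stood at 55.3 on the Spl array, against 2254 and 2164 on the BM arrays (-4.68). On these genes the Spl level was near the median of all probe sets, whereas both BM levels were in the top 5% of their arrays.

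The same pattern held for cyclins and spindle proteins. Ccna2, the S and M phase cyclin A2, stood at 59.04 on the Spl array, against 2286 and 2188 on the BM arrays. Ccnb2, a partner of Cdk1, stood at 48.9 on the Spl array, against 1942 and 1860.4 on the BM arrays. Birc5, a subunit of the chromosomal passenger complex, stood at 62.5 on the Spl array, against 2371 and 2178 on the BM arrays. On the scale with 32 added these 3 lay 23.9-fold to 24.9-fold below BM. Kif11, the motor that separates the spindle poles, stood at 35.9 on the Spl array, against 1658 and 1565 on the BM arrays. Nusap1, which binds spindle microtubules, stood at 53.9 on the Spl array, against 2057 and 1899 on the BM arrays. Kif22, a motor on chromosome arms and no member of the list, stood at 70.1 on the Spl array, against 3071 and 3501 on the BM arrays, and its other probe sets differed the same way. The proliferation marker Mki67 stood at 215 on the Spl array, against 4489 and 4692 on the BM arrays (-4.23). The topoisomerase Top2a stood at 192 on the Spl array, against 4081 and 3919 on the BM arrays (-4.17).

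2 genes of the mitosis list did not meet the 4-fold rule. Cdc25c, the phosphatase that activates Cdk1, stood at 16.2 on the Spl array, against 127 and 143 on the BM arrays (-1.79). Cenpa, the histone of the centromere, was the exception in size, at 1192 on the Spl array, against 1662 and 1779 on the BM arrays (-0.52). Foxm1, a transcription factor of G2 and M phase genes, stood at 14.4 on the Spl array, against 237 and 189.7 on the BM arrays. For Cdc20 the probe sets disagreed: a second one went the same way, at 44.2 on the Spl array and 875 and 872 on the BM arrays, but the last one stood at 183 on the Spl array and at 2.44 and 2.40 on the BM arrays. Summed over the list, the level was 2572 on the Spl array, against 44615 and 43744 on the BM arrays. The list median was also low under the other scalings, at -5.02 with median scaling and -3.41 on the deposited intensities.

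Promoters of genes with these large falls are shown because the genes of G2 and M phase are known to share short promoter elements: the cell cycle homology region (CHR), with the letters TTTGAA, bound by the DREAM and MuvB complexes, and CCAAT boxes, bound by NF-Y. Each window holds the 250 bases before the RefSeq start in GRCm38.p6, read 5′ to 3′ on the strand of the gene, and capitals mark TTTGAA or CCAAT on either strand. The windows are chr10:69352913-69353162 for Cdk1, chr4:118437344-118437593 for Cdc20, chr9:70421555-70421804 for Ccnb2 (all on the minus strand) and chr2:164769679-164769928 for Ube2c (plus strand).
Cdk1: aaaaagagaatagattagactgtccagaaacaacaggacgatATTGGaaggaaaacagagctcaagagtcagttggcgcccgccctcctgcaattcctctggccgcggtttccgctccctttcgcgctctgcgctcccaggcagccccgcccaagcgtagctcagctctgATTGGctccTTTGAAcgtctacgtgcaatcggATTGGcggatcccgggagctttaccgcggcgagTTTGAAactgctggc
Cdc20: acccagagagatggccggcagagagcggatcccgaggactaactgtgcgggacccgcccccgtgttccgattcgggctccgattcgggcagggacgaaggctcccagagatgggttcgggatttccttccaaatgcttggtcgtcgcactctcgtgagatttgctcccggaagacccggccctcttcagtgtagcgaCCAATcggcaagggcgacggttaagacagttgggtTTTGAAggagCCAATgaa
Ccnb2: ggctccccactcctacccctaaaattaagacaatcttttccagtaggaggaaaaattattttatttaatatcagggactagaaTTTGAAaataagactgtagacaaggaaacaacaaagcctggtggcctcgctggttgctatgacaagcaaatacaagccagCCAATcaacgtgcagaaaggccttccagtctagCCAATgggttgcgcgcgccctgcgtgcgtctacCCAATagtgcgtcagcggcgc
Ube2c: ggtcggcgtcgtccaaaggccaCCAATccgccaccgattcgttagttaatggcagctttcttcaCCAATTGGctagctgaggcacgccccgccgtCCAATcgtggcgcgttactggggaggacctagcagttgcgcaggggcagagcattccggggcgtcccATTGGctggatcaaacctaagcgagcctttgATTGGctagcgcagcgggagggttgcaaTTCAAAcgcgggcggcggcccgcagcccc

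In these windows, counting back from the start, the TTTGAA letters of Cdk1 lay at -71 to -66 and at -15 to -10, those of Cdc20 at -18 to -13 and those of Ccnb2 at -167 to -162. Ube2c had the motif on the opposite strand, at -29 to -24, and 2 of its CCAAT matches overlap. Of the 31 measured mitosis genes, 25 had a window in the table, with 26 windows in all. CCAAT was present in 23 of these 26 windows (88.5%), against 34.7% of the 18109 windows of all measured genes, and TTTGAA in 8 (30.8%), against 11.9%. Both together were found in 8 mitosis windows (30.8%), against 4.25% over all measured genes. Among the windows of all genes 4-fold lower in Spl, 138 of 292 held CCAAT (47.3%) and 41 held both (14.04%). Among those of the genes 4-fold higher, 78 of 231 held CCAAT (33.8%) and 6 held both (2.6%). A match of letters is a description and not a binding site.

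Genes of DNA replication were lower in Spl as well, with smaller differences. All 25 measured members had a negative difference, 15 met the 4-fold rule and 20 the 2-fold rule, all lower, and the median was -2.20. Rrm2, a subunit of ribonucleotide reductase, stood at 73.8 on the Spl array, against 1748 and 1518 on the BM arrays (-3.97). Tk1, the thymidine kinase of S phase, stood at 23.8 on the Spl array, against 757 and 658 on the BM arrays (-3.73). Uhrf1, which keeps DNA methylation through replication, stood at 54.3 on the Spl array, against 1178 and 1078 on the BM arrays (-3.75). Lig1, the ligase that joins Okazaki fragments, stood at 69.5 on the Spl array, against 1115 and 984 on the BM arrays (-3.41). All 4 were 10.6-fold to 15.7-fold lower in Spl on the scale with 32 added. Of the subunits of the MCM helicase, Mcm5 stood at 190.0 on the Spl array, against 1947 and 1859 on the BM arrays, and Mcm7 at 395 on the Spl array, against 3050.4 and 3021 on the BM arrays. Pcna, the sliding clamp, differed less than 2-fold, at 1961 on the Spl array, against 3184 and 3107 on the BM arrays. CCAAT was present in 15 of the 26 promoter windows of this list (57.7%) and TTTGAA in 3 (11.5%). On the deposited intensities 23 of the 25 members were still negative and 6 met the 4-fold rule.

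Of 5 measured genes of the histone and chromatin list, 2 met the 4-fold rule, both lower, and the median was -1.90. H2ax, a histone variant of DNA damage signalling, stood at 169 on the Spl array, against 2967 and 2639.7 on the BM arrays (-3.81). Stmn1, which takes apart microtubules, stood at 865 on the Spl array, against 6400.1 and 5662 on the BM arrays (-2.75). H1f2, a linker histone, differed the other way by more than 2-fold, at 2570.3 on the Spl array, against 857 and 1036 on the BM arrays. The largest fall of all named genes was that of H2bc22, a histone H2B gene, at 7.73 on the Spl array, against 2265 and 2474 on the BM arrays (-5.92), but histone genes are near copies and the array design marks this probe set as one that can match other genes. Ubl5, a ubiquitin-like protein of splicing, stood at 17.03 on the Spl array, against 2205 and 1962 on the BM arrays on the probe set used, while its other probe set stood at 87.5 on the Spl array and 54.0 and 67.1 on the BM arrays, so the gene has no agreed direction.

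Regulators of the cell cycle split in both directions. Of 23 measured cyclins, E2F and pocket proteins and CDK inhibitors, 2 were 4-fold higher and 4 were 4-fold lower in Spl, and the median was -0.31. With median scaling 1 was higher and 9 were lower at 4-fold. Cdkn1a, which encodes the inhibitor p21, stood at 894 on the Spl array, against 159 and 139 on the BM arrays (2.36). Gadd45b, a stress-induced growth arrest gene, stood at 1196 on the Spl array, against 126 and 101 on the BM arrays (3.08). Both inhibitors of growth thus met the 4-fold rule, and the second probe set of Cdkn1a differed the same way, at 803 on the Spl array and 96.9 and 92.7 on the BM arrays. On the lower side, E2f8, an E2F repressor of S phase, stood at 38.9 on the Spl array, against 958 and 992 on the BM arrays (-3.83), with its other probe set dim or near the median. Cdkn2c, which encodes the inhibitor p18, stood at 122 on the Spl array, against 953 and 875 on the BM arrays. The pocket protein gene Rbl1 stood at 154 on the Spl array, against 831 and 833 on the BM arrays. The activator E2f2 stood at 47.7 on the Spl array, against 282 and 318 on the BM arrays. Of the D cyclins, Ccnd1 stood at 513 on the Spl array, against 1791 and 2046 on the BM arrays and Ccnd3 at 942 on the Spl array, against 2018 and 1978 on the BM arrays, while the inhibitor Cdkn1b (p27) differed less than 2-fold, at 1643 on the Spl array, against 942 and 909 on the BM arrays.

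**Figure D3:**
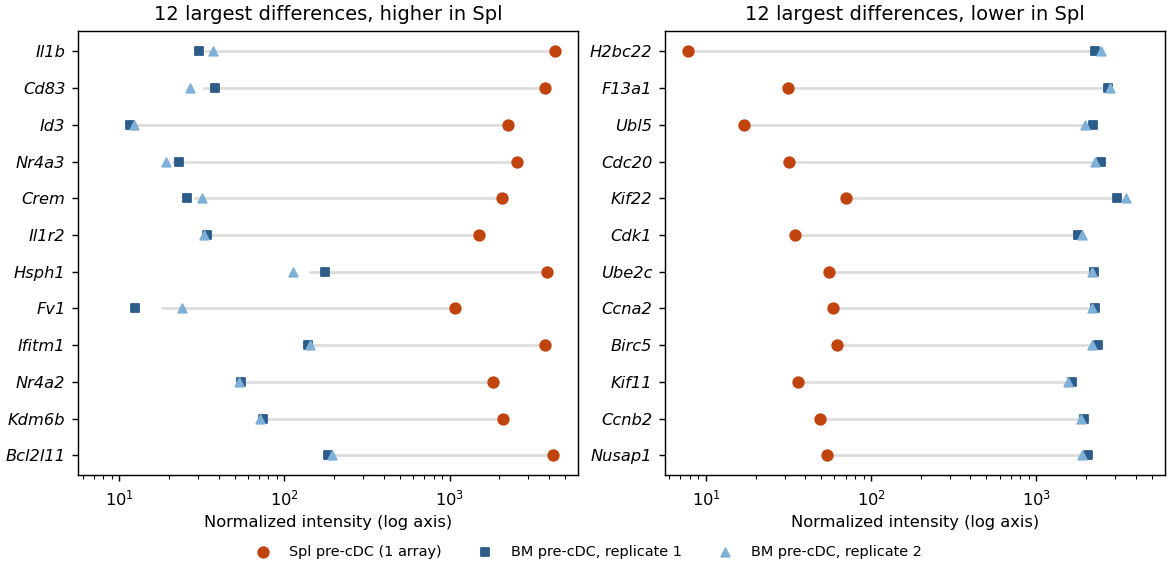
Normalized intensity (log axis) of the 12 named genes with the largest differences in each direction, on the Spl array (circles) and on the BM arrays (squares and triangles). On the left the Spl level exceeds the BM mean by at least 19.4-fold on the scale with 32 added and lies above both BM arrays, and on the right it lies below both; the 2 BM arrays sit close together for most genes.

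The largest differences upward among the named genes were those of Il1b and Cd83. Il1b, which encodes the cytokine interleukin 1 beta, stood at 4367 on the Spl array, against 30.4 and 36.9 on the BM arrays, a difference of 6.07, or 67.1-fold on the scale with 32 added (limma adjusted p = 1.3e-11). Cd83, a surface molecule of mature dendritic cells, stood at 3789 on the Spl array, against 38.2 and 26.9 on the BM arrays, a difference of 5.89. Both BM levels of these genes were near the median of all probe sets, and the Spl levels were in the top 1% of that array. Each gene rests on 1 probe set.

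Of the 20 measured genes of maturation and costimulation, 4 were 4-fold higher and 14 were 2-fold higher in Spl, with 0 lower at 2-fold, and the median was 1.47. Cd86, a ligand of CD28, stood at 1208 on the Spl array, against 62.7 and 49.7 on the BM arrays (3.82), and its second probe set agreed, at 939 on the Spl array and 38.2 and 37.2 on the BM arrays. Ccr7, the chemokine receptor that guides mature dendritic cells to lymph nodes, stood at 276 on the Spl array, against 13.3 and 14.5 on the BM arrays (2.75). Icosl, the ligand of the T cell receptor ICOS, stood at 1143 on the Spl array, against 264 and 249.9 on the BM arrays (2.03) on 1 of its probe sets, and the other was near the median on all 3 arrays. Cd80, the other ligand of CD28, stood at 126 on the Spl array, against 15.8 and 21.03 on the BM arrays (1.65). Fscn1, which bundles actin in mature dendritic cells, stood at 188 on the Spl array, against 28.6 and 33.2 on the BM arrays, and Cd40, the receptor of T cell help, at 304 on the Spl array, against 89.9 and 106 on the BM arrays. Not all maturation genes were high: the enzyme gene Il4i1 and the checkpoint ligand gene Pdcd1lg2 were dim on all 3 arrays. The list median was 0.69 with median scaling and 2.38 on the deposited intensities.

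Of 17 measured genes of the NF-kB pathway, 5 were 4-fold higher and 10 were 2-fold higher in Spl, 0 were lower at 2-fold, and the median was 1.47. Of the subunits, Rel stood at 709.6 on the Spl array, against 80.1 and 84.6 on the BM arrays (2.70), and Relb, which partners with Nfkb2 in the alternative branch, at 335 on the Spl array, against 79.2 and 75.2 on the BM arrays (1.75). Rela differed less than 2-fold, at 1503 on the Spl array, against 945 and 996 on the BM arrays. Bcl3, an atypical inhibitor that binds NF-kB in the nucleus, stood at 2030.0 on the Spl array, against 145 and 140.2 on the BM arrays (3.56). Traf1, a signalling adaptor and known NF-kB target, stood at 643 on the Spl array, against 28.7 and 31.01 on the BM arrays (3.45). These 2 genes were 11.8-fold and 10.9-fold over BM on the scale with 32 added. Nfkbie, an inhibitor that holds NF-kB in the cytoplasm, stood at 2601 on the Spl array, against 411 and 506 on the BM arrays (2.43). Tnfaip3, the deubiquitinase A20, stood at 1223 on the Spl array, against 218 and 212 on the BM arrays (2.34). Nfkbia differed less than 2-fold, at 5908 on the Spl array, against 3937 and 4229.8 on the BM arrays. This list leaned on the scaling: with median scaling its median was 0.00, with 2 genes 4-fold higher and 8 of the 17 negative.

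Among 16 measured inflammatory cytokines Il1b stood alone: 1 was 4-fold higher, 3 were 2-fold higher and 2 were 2-fold lower in Spl, and the median was 0.11. Il12b, a subunit of interleukins 12 and 23, stood at 112 on the Spl array, against 30.5 and 33.5 on the BM arrays (1.17). Il18 stood at 189 on the Spl array, against 70.2 and 72.7 on the BM arrays (1.09). Tnf differed the other way, at 26.4 on the Spl array, against 125 and 173 on the BM arrays (-1.62), as did Ebi3, a subunit of interleukins 27 and 35, at 174 on the Spl array, against 495 and 474 on the BM arrays. Il6 and Il1a were dim on all 3 arrays, at 23.5 on the Spl array, against 7.14 and 5.84 on the BM arrays for Il6 and 25.2 on the Spl array, against 16.8 and 21.5 on the BM arrays for Il1a. Il1r2, the decoy receptor of interleukin 1, was also among the largest differences, at 1503 on the Spl array, against 33.8 and 32.7 on the BM arrays (4.55).

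Of 18 measured chemokines, 1 was 4-fold higher and 2 were 4-fold lower in Spl, and the median was 0.39. Cxcl16, a transmembrane chemokine, stood at 374 on the Spl array, against 17.00 and 15.4 on the BM arrays (3.07). Ccl6, a myeloid chemokine of mice, stood at 382 on the Spl array, against 2078 and 1959 on the BM arrays (-2.31), and Ccl3, an inflammatory chemokine of macrophages, at 23.4 on the Spl array, against 160.1 and 257 on the BM arrays. Ccl3 was the gene of these 3 with the widest gap between the BM arrays. The ligands of mature dendritic cells Ccl17 and Ccl22 were low on all 3 arrays, at 25.4 on the Spl array, against 20.4 and 21.1 on the BM arrays for Ccl17 and 48.5 on the Spl array, against 25.3 and 23.9 on the BM arrays for Ccl22.

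The immediate early genes, which cells switch on within minutes of a stimulus and which are also known to respond to cell isolation, divided into both directions. Of 28 measured members, 5 were 4-fold higher and 4 were 4-fold lower in Spl, and the median was -0.08. The orphan nuclear receptor gene Nr4a3 stood at 2567 on the Spl array, against 22.9 and 19.3 on the BM arrays (5.61), but its other probe sets were dim or near the median, at 23.9 and 56.3 on the Spl array. Nr4a2, of the same family, stood at 1827 on the Spl array, against 54.5 and 52.9 on the BM arrays (4.44), and 3 of its other 5 probe sets also differed by more than 2-fold. Nr4a1, the remaining member, stood at 2057 on the Spl array, against 448 and 654 on the BM arrays (1.86). The family was thus above BM in all 3 members. The phosphatase gene Dusp5 stood at 2179.8 on the Spl array, against 135 and 163 on the BM arrays (3.62). Fosl2, an AP-1 subunit, stood at 1908 on the Spl array, against 252 and 244 on the BM arrays on the probe set used, with a smaller difference on the other. The survival gene Ier3 stood at 266 on the Spl array, against 28.96 and 28.3 on the BM arrays.

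On the lower side of that list, Fosb, an AP-1 subunit, stood at 75.97 on the Spl array, against 1529 and 1921 on the BM arrays (-4.02). Egr1, a zinc finger factor, stood at 385 on the Spl array, against 1395 and 2007 on the BM arrays. Klf2, a Krüppel-like factor of quiescence, stood at 617 on the Spl array, against 2404 and 3282 on the BM arrays. All 3 had their highest level on BM replicate 2. Klf4, a factor of monocytes and of part of the cDC2, stood at 1182 on the Spl array, against 6094 and 7208 on the BM arrays (-2.46), and its second probe set agreed. Fos differed less than 2-fold, at 6075 on the Spl array, against 7960.4 and 8287 on the BM arrays, and Jun by -1.57, at 1891 on the Spl array, against 5166 and 6238 on the BM arrays. High levels of Fos, Jun and Dusp1 on all 3 arrays show that immediate early transcripts were abundant in both groups. With median scaling 3 genes of the list were 4-fold higher and 10 were 4-fold lower.

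Promoters of Nr4a3 and Nr4a2 are shown because both genes are known targets of CREB, the factor of cyclic AMP signalling, whose half-site has the letters TGACG. The half-site was searched after the windows had been read. The windows hold the 250 bases before the RefSeq start in GRCm38.p6, at chr4:48045055-48045304 (plus strand) for Nr4a3 and chr2:57124004-57124253 (minus strand) for Nr4a2, and capitals mark TGACG on either strand.
Nr4a3: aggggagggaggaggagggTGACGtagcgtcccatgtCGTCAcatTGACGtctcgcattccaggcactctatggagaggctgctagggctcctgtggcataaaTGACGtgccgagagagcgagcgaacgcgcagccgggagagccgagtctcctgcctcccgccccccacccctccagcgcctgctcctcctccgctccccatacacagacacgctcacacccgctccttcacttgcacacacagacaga
Nr4a2: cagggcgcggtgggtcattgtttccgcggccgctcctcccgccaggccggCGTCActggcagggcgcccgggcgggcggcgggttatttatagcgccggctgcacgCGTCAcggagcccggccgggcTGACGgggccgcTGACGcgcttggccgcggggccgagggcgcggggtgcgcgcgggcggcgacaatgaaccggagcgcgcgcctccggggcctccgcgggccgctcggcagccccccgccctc

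Each window held 4 half-sites, and the full palindrome TGACGTCA and the AP-1 letters TGANTCA were not found in these windows. TGACG was present in 17 of 29 windows of the immediate early list (58.6%). It was present in 68 of 231 windows of the genes 4-fold higher in Spl (29.4%) and in 61 of 292 windows of the genes 4-fold lower (20.9%), against 22.7% of the windows of all measured genes. The full palindrome was present in 3 windows of the higher genes (1.30%) and in 4 of the lower (1.37%), against 2.12% over all measured genes. In the immediate early list 2 of 29 windows held it (6.90%). Crem, a cyclic AMP responsive member of the same factor family, had one of the largest differences, at 2080.5 on the Spl array, against 25.7 and 31.8 on the BM arrays (5.12), and a second of its probe sets agreed while the other 2 were dim. AP-1 letters were found in 18 windows of the higher genes (7.79%) and in 5 of the lower (1.71%), against 5.62% over all measured genes.

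Of 12 measured heat shock genes, chaperones and co-chaperones, 3 were 4-fold higher and 8 were 2-fold higher in Spl, 0 were lower at 2-fold, and the median was 1.65. Hsph1, a large chaperone of the HSP110 family, stood at 3904 on the Spl array, against 175 and 112 on the BM arrays (4.51), and its second probe set agreed. Hspb1, a small heat shock protein gene, stood at 474 on the Spl array, against 70.9 and 78.7 on the BM arrays (2.25). Dnajb1, a partner of HSP70, stood at 2886 on the Spl array, against 699 and 635 on the BM arrays on the probe set used, but at 642 on the Spl array and 602 and 611 on the BM arrays on the other. Hspa1b, an inducible HSP70 gene, was high on all 3 arrays, at 8538 on the Spl array, against 5560.4 and 4258 on the BM arrays, and Hspa8, the constitutive form, was level, at 8124 on the Spl array, against 9080.1 and 8878 on the BM arrays. The list median was 0.10 with median scaling, with 1 gene 4-fold higher. Since these genes and the immediate early genes are known to respond to handling of cells, their levels are given beside the maturation genes; their part in the differences was not tested.

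**Figure D4:**
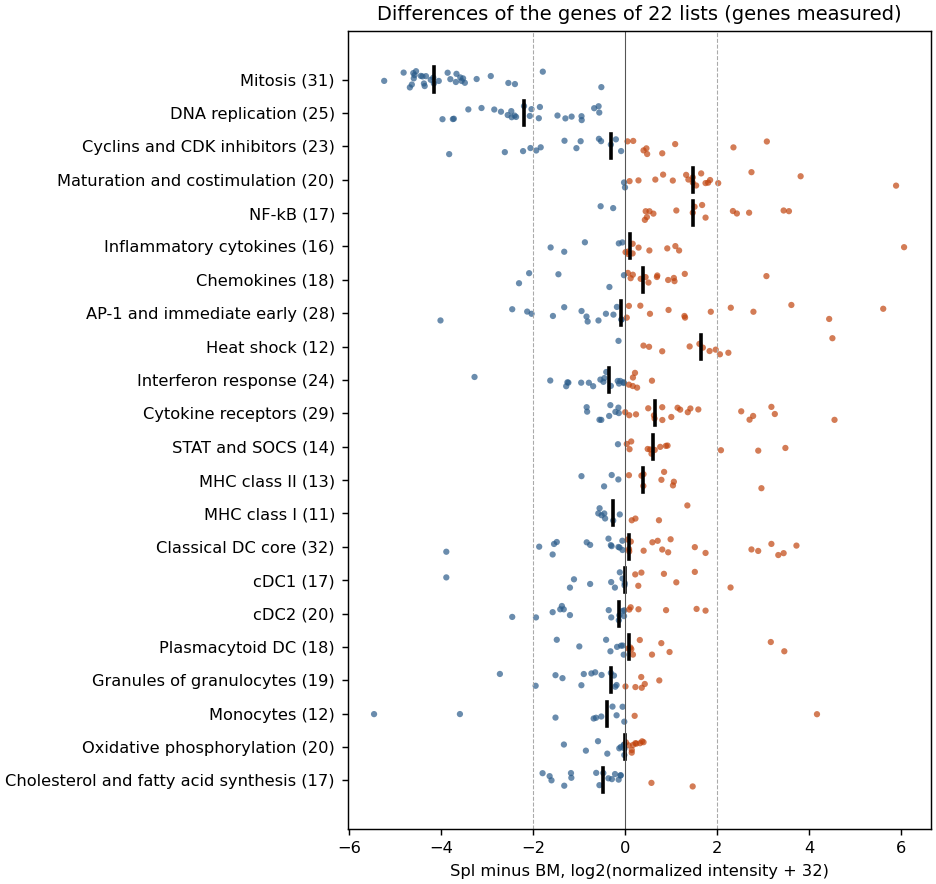
Difference of each measured gene of 22 lists, Spl minus BM, in log2(normalized intensity + 32); each point is a gene, black bars are list medians and dashed lines mark 4-fold. Mitosis (median -4.16) and DNA replication (-2.20) lie to the left of 0, and heat shock (1.65), maturation (1.47) and NF-kB (1.47) to the right, while most other lists are centred near 0 after quantile normalization. With median scaling the heat shock and NF-kB medians were 0.10 and 0.00, against -0.23 over all genes.

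Transcription factors of the dendritic cell lineage differed in both directions. Irf8, the factor required for cDC1 and for CDP development, stood at 402 on the Spl array, against 6017 and 6817 on the BM arrays, a difference of -3.89 (limma adjusted p = 2.5e-11), and its second probe set agreed, at 555 on the Spl array and 5063 and 5929 on the BM arrays. Its rank was percentile 88.3 of the Spl array, against 99.6 on both BM arrays, so the gene was still among the brighter ones in Spl. Irf4, which is needed by cDC2, also stood lower, at 142 on the Spl array, against 439.9 and 539 on the BM arrays (-1.58). Spib, an Ets factor of plasmacytoid and classical dendritic cells, stood at 608.4 on the Spl array, against 1710.1 and 1815 on the BM arrays (-1.49). Batf3, the partner of IRF8 in cDC1, differed less than 2-fold, at 81.4 on the Spl array, against 157 and 163 on the BM arrays, and Spi1, which encodes PU.1, was level, at 862 on the Spl array, against 871 and 788 on the BM arrays. Id2, the inhibitor of E proteins that rises in the dendritic cell lineage, stood at 654 on the Spl array, against 217 and 199 on the BM arrays (1.52).

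Of 49 measured transcription factors of myeloid lineages, 9 were 4-fold higher and 3 were 4-fold lower in Spl, and the median was 0.42. With median scaling the balance turned, to 3 higher and 11 lower at 4-fold and a median of -0.40. Id3, an inhibitor of E proteins like Id2, stood at 2255 on the Spl array, against 11.6 and 12.3 on the BM arrays (5.70), behind Il1b and Cd83 the largest difference upward. Runx3, a Runt factor of dendritic and T cells, stood at 3188 on the Spl array, against 210.0 and 212 on the BM arrays (3.73). Nfil3, needed for cDC1 precursors, stood at 377 on the Spl array, against 25.9 and 20.2 on the BM arrays (2.89), and Nfe2l2, the factor of the oxidative stress response, at 2213 on the Spl array, against 357 and 326 on the BM arrays (2.59). All 4 lay beyond both BM arrays, as the 4-fold rule requires. The other 5 of the higher factors were Ahr, Etv3, Irf2, Mxd1 and Bhlhe40, with differences of 2.22 to 2.52. The lower ones were Irf8, Klf4 and Klf2. Kdm6b, a histone demethylase, was also among the largest differences, at 2103 on the Spl array, against 73.7 and 71.1 on the BM arrays (4.35), with a second probe set that agreed and the last at 274 on the Spl array and 188 and 272 on the BM arrays. Cebpa, a factor of granulocyte and monocyte progenitors, stood at 182 on the Spl array, against 538 and 515 on the BM arrays, and Myc at 97.3 on the Spl array, against 242 and 277 on the BM arrays.

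The classical dendritic cell core list had 32 measured genes, of which 6 were 4-fold higher and 1, Irf8, was 4-fold lower in Spl, with a median of 0.09. With median scaling 6 were higher and 6 lower at 4-fold, and the median was -1.21. After quantile normalization the higher ones were Runx3, Traf1, Gpr132, Kit, Nfil3 and Ccr7. Gpr132, a lysolipid receptor gene, stood at 1477 on the Spl array, against 116 and 119 on the BM arrays on the probe set used, while its other was near the median. Mycl, a Myc factor of dendritic cells, stood at 91.3 on the Spl array, against 414 and 422 on the BM arrays (-1.87). The dipeptidase gene Dpp4, at 1202 on the Spl array, against 1109 and 1152 on the BM arrays, and the inhibitory receptor gene Btla, at 2641 on the Spl array, against 1815 and 2179.8 on the BM arrays, differed less than 2-fold.

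The cDC1 and cDC2 lists had medians near 0 after quantile normalization. With median scaling the cDC1 median was -0.06, with 0 higher and 2 lower at 4-fold, and the cDC2 median was -1.47, with 0 higher and 6 lower. Of 17 measured cDC1 genes, 1 was 4-fold higher (Cd8a) and 1 lower (Irf8) in Spl, with a median of -0.01. Cd8a, the alpha chain carried by lymphoid cDC1, stood at 358 on the Spl array, against 49.7 and 45.3 on the BM arrays (2.29). The cDC1 receptor gene Xcr1 was dim on all 3 arrays, at 8.47 on the Spl array, against 12.4 and 18.2 on the BM arrays. Of 20 measured cDC2 genes, 0 were 4-fold higher and 1 (Klf4) was lower, 2 were 2-fold higher and 7 were 2-fold lower, with a median of -0.13. Among these, Sirpa, the inhibitory receptor of cDC2, stood at 334 on the Spl array, against 894 and 886 on the BM arrays (-1.33). Itgam, which encodes CD11b, stood at 54.5 on the Spl array, against 328 and 274 on the BM arrays (-1.94). Clec10a, a galactose lectin, stood at 303 on the Spl array, against 798 and 923 on the BM arrays. Cd4, carried by cDC2 of the mouse spleen, stood at 81.9 on the Spl array, against 5.04 and 8.59 on the BM arrays.

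Of 18 measured plasmacytoid dendritic cell genes, 2 were 4-fold higher in Spl and 0 lower, with a median of 0.09, while 2 were higher and 2 lower with median scaling. Ccr9, a gut-homing receptor also used by plasmacytoid cells, stood at 1093 on the Spl array, against 70.1 and 69.9 on the BM arrays (3.46), and Lag3, an inhibitory receptor, at 461 on the Spl array, against 27.99 and 18.04 on the BM arrays (3.17). The defining gene Siglech stood at 456 on the Spl array, against 231 and 205 on the BM arrays (0.97), and the lineage factor Tcf4 at 3719 on the Spl array, against 2788 and 3172 on the BM arrays, so both were above the median in both groups.

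Counts of antigen presentation genes can be read against the shares over all genes. Of these, 1.25% were 4-fold higher and 1.61% 4-fold lower, and 6.4% were 2-fold higher and 6.78% 2-fold lower. Of 13 measured genes of MHC class II, 1 was 4-fold higher and 3 were 2-fold higher in Spl, with a median of 0.40. The chain genes H2-Aa, at 8489 on the Spl array, against 5978 and 6905 on the BM arrays, and the invariant chain gene Cd74, at 6817 on the Spl array, against 5125 and 5529 on the BM arrays, differed less than 2-fold. Ciita, the master regulator of the class II genes, stood at 91.1 on the Spl array, against 194 and 218 on the BM arrays (-0.95). The gene that met the 4-fold rule was H2-Ea, at 237 on the Spl array, against 2.44 and 2.40 on the BM arrays, on 1 of 3 probe sets, with the others dim, and C57BL/6 mice are known not to make the E alpha chain. Of 11 measured MHC class I genes, 0 met the 4-fold rule and 1 was 2-fold higher, with a median of -0.26. That gene was Erap1, the peptidase that trims peptides for class I, at 231 on the Spl array, against 71.2 and 70.9 on the BM arrays.

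Of 29 measured cytokine receptors, 6 were 4-fold higher and 12 were 2-fold higher in Spl, 0 were lower at 2-fold, and the median was 0.64. Csf2rb2 stood at 2680.2 on the Spl array, against 425 and 453 on the BM arrays (2.53). Of the chains of the GM-CSF receptor, the beta chain Csf2rb stood at 4576 on the Spl array, against 1377 and 1625 on the BM arrays (1.59), but with median scaling its Spl level lay between the BM arrays. The alpha chain Csf2ra differed less than 2-fold the other way, at 1726 on the Spl array, against 2845 and 3343 on the BM arrays. Tnfrsf1b, the second TNF receptor, stood at 1006 on the Spl array, against 133 and 121 on the BM arrays (2.71). Ifngr2, a chain of the interferon gamma receptor, stood at 352 on the Spl array, against 6.02 and 10.5 on the BM arrays on the probe set used, and at 541 on the Spl array and 339 and 592 on the BM arrays on the other, so its direction was not shared. Csf1r, the M-CSF receptor gene, stood at 2663 on the Spl array, against 3793 and 3862 on the BM arrays. The list median was 0.01 with median scaling, with 4 genes 4-fold higher and 3 lower.

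Of 14 measured STAT, SOCS and related genes, 3 were 4-fold higher in Spl and 0 lower, with a median of 0.61 (-0.07 with median scaling). Socs3, the feedback inhibitor of STAT3, stood at 882 on the Spl array, against 48.4 and 50.8 on the BM arrays (3.49), and both other probe sets differed the same way. Stat4, the mediator of interleukin 12 signals, stood at 1389 on the Spl array, against 155 and 162 on the BM arrays (2.90). Stat3, the mediator of FLT3 ligand and interleukin 6 signals, stood at 1921 on the Spl array, against 409 and 449 on the BM arrays (2.08), with its probe sets partly in agreement. Stat5a stood at 731 on the Spl array, against 404 and 358 on the BM arrays and Socs1 was dim, at 18.3 on the Spl array, against 18.2 and 30.7 on the BM arrays.

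Of 20 measured Toll-like receptors and innate sensors, 1 was 4-fold higher in Spl and 0 lower, with 4 lower at 2-fold and a median of -0.06, while with median scaling 3 were 4-fold lower. Cd14, the lipopolysaccharide co-receptor, stood at 1436 on the Spl array, against 49.4 and 49.2 on the BM arrays (4.17). Tlr4 itself was dim, at 7.19 on the Spl array, against 35.3 and 32.9 on the BM arrays, and Tlr2 stood at 107 on the Spl array, against 283 and 337 on the BM arrays. Of 19 measured lectins, 2 were 4-fold higher and 1 was lower, with a median of 0.09, and 0 were higher and 4 lower with median scaling. Clec7a, the beta-glucan receptor Dectin-1, stood at 4633 on the Spl array, against 817 and 806 on the BM arrays (2.47). Cd209d, a relative of Cd209a, stood at 1999 on the Spl array, against 435 and 430.1 on the BM arrays (2.13), and Clec4b1 at 25.96 on the Spl array, against 235 and 249.8 on the BM arrays. Of 9 measured Fc receptor genes, 0 differed 2-fold, with a median of 0.03.

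Of 22 measured chemokine and lipid receptors, 2 were 4-fold higher in Spl (Ccr9 and Ccr7) and 0 lower, with a median of 0.03, while 2 were higher and 2 lower with median scaling. Ccr2, which guides monocytes out of the marrow, stood at 2499.5 on the Spl array, against 3897 and 4175 on the BM arrays, and Cx3cr1, a marker of dendritic cell precursors, at 848 on the Spl array, against 1879 and 2107 on the BM arrays. Cxcr4, which retains cells in the marrow, stood at 1189 on the Spl array, against 801 and 634 on the BM arrays (0.71). Of 24 measured integrins and adhesion molecules, 0 met the 4-fold rule, 3 were 2-fold higher and 3 were 2-fold lower, with a median of 0.04, and 3 were 4-fold lower with median scaling. Itgb7, a chain of the gut-homing integrin, stood at 985 on the Spl array, against 3384 and 3568 on the BM arrays (-1.79), and Icam1 at 437 on the Spl array, against 197 and 197 on the BM arrays.

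Of 22 measured genes of earlier progenitors, 13 were above the median of all probe sets in Spl or in the BM mean. In Spl 2 were 4-fold higher (Kit and Tgm2) and 1 lower (Cd93), 5 were lower at 2-fold, and the median was -0.17. With median scaling 1 was higher and 4 were lower at 4-fold. Cd93, a receptor of early progenitors, stood at 101 on the Spl array, against 821 and 774 on the BM arrays (-2.64), Cd34 at 14.9 on the Spl array, against 102 and 72.5 on the BM arrays and the transcription factor gene Myb at 324 on the Spl array, against 699 and 680.2 on the BM arrays. Tgm2, a transglutaminase, stood at 213 on the Spl array, against 27.4 and 16.7 on the BM arrays. Of 19 measured granule genes of granulocytes, 0 were higher and 1 lower at 4-fold, with a median of -0.31, and 4 were lower with median scaling. Lcn2, the siderophore-binding lipocalin, stood at 8.06 on the Spl array, against 223 and 243 on the BM arrays (-2.72), while the primary granule genes Mpo and Elane were near the median on all 3 arrays. The lysozyme gene Lyz2 stood at 928 on the Spl array, against 2745 and 2675 on the BM arrays.

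Of 16 measured apoptosis genes, 1 was 4-fold higher and 1 lower in Spl, with a median of -0.22, and 1 was higher and 4 lower with median scaling. Bcl2l11, which encodes the death activator BIM, stood at 4258 on the Spl array, against 184 and 195 on the BM arrays (4.28), and its other probe sets differed the same way. Bid, another death activator, stood at 105 on the Spl array, against 624 and 544 on the BM arrays (-2.16), and Bcl2, the survival gene, at 201 on the Spl array, against 686 and 648 on the BM arrays. Of 24 measured interferon response genes, 0 were higher at 2-fold and 5 lower, with 1 lower at 4-fold and a median of -0.36 (-1.20 with median scaling). Mx1, an antiviral GTPase gene, stood at 45.5 on the Spl array, against 684 and 755 on the BM arrays (-3.28). Irf7, the amplifier of type I interferon, was level, at 368 on the Spl array, against 426 and 332 on the BM arrays. Ifitm1, an interferon-inducible membrane protein gene outside that list, was among the largest differences the other way, at 3769 on the Spl array, against 139.5 and 143 on the BM arrays (4.45), and so was Fv1, a retroviral restriction gene of mice, at 1079.6 on the Spl array, against 12.4 and 23.9 on the BM arrays.

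After quantile normalization the 5 metabolic lists had medians between -0.47 and 0.00 and 0 genes lower at 4-fold. With median scaling their medians lay between -1.67 and -1.26, and 4 glycolysis, 3 oxidative phosphorylation, 2 ribosome biogenesis, 7 cholesterol and fatty acid and 7 lysosome genes were 4-fold lower, with 0 higher. Of 18 measured glycolysis genes, 0 met the 4-fold rule, 2 were 2-fold higher and 3 lower, with a median of -0.26. Pkm, the last enzyme of the pathway, stood at 215 on the Spl array, against 941 and 839 on the BM arrays (-1.90), and Hk2, the first, at 257 on the Spl array, against 912 and 991 on the BM arrays (-1.77). Of 20 measured genes of oxidative phosphorylation, 0 met the 4-fold rule and only Atp5b was lower at 2-fold, at 936 on the Spl array, against 2412 and 2396 on the BM arrays, with a median of 0.00. Of 20 measured ribosome biogenesis genes, 0 met it, with a median of -0.32. Odc1, an enzyme of polyamine synthesis, stood at 1469 on the Spl array, against 556 and 566 on the BM arrays, a difference of 1.34, which was -0.12 with median scaling. Of 17 measured cholesterol and fatty acid genes, 0 met it, 1 was 2-fold higher and 6 lower, with a median of -0.47. Sqle, the squalene epoxidase, stood at 77.3 on the Spl array, against 316 and 302 on the BM arrays (-1.64), and Fdft1, the squalene synthase, at 39.6 on the Spl array, against 230.0 and 204 on the BM arrays. Of 19 measured lysosome genes, 1 was 4-fold higher and 2 were 2-fold lower, with a median of -0.25. Lgmn, an endopeptidase of antigen processing, stood at 2109 on the Spl array, against 245 and 174 on the BM arrays (3.17), and Cd68 at 412 on the Spl array, against 1363 and 1172 on the BM arrays.

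Markers of other cells were examined for both groups. Of 13 measured B cell genes, 1 was 4-fold higher in Spl and 2 were lower, with a median of 0.08 and a summed level of 2772 on the Spl array, against 1414 and 1395 on the BM arrays. Most of the Spl sum came from the higher gene alone. The higher gene was Blnk, an adaptor of B cell receptor signalling, at 2382 on the Spl array, against 116 and 96.3 on the BM arrays (4.13), and the lower ones were Cd22, at 39.7 on the Spl array, against 693 and 759.7 on the BM arrays, and Ebf1, at 9.15 on the Spl array, against 219.7 and 225 on the BM arrays, whose other 4 probe sets were dim. The defining genes Ms4a1, Pax5 and Cd79a were dim or near the median on all 3 arrays, with Cd79a at 36.6 on the Spl array, against 3.57 and 7.10 on the BM arrays. Of 13 measured T cell genes, 1 was 4-fold higher (Cd8a) and 0 lower, with a median of 0.28 and a sum of 799 on the Spl array, against 346 and 323 on the BM arrays. Cd3e was dim in both groups, at 25.8 on the Spl array, against 16.5 and 28.02 on the BM arrays, as was Cd3d, at 24.1 on the Spl array, against 9.10 and 7.28 on the BM arrays.

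Of 12 measured NK cell genes, 0 met the 4-fold rule and 3 were 2-fold higher in Spl, with a median of 0.16 and a sum of 5529.8 on the Spl array, against 2046 and 2425 on the BM arrays. That sum rested on Klrd1, a CD94 chain gene, at 4404 on the Spl array, against 1609 and 1957 on the BM arrays, and on Klrk1, the NKG2D gene, at 751 on the Spl array, against 208 and 181 on the BM arrays, while Ncr1 was dim, at 13.6 on the Spl array, against 10.9 and 7.52 on the BM arrays. Of 9 measured neutrophil genes, 0 were higher and 1 (Lcn2) lower at 4-fold, with a median of -0.35 and a sum of 253 on the Spl array, against 615 and 548 on the BM arrays. S100a8 stood at 14.9 on the Spl array, against 84.9 and 38.3 on the BM arrays and S100a9 at 14.4 on the Spl array, against 68.6 and 20.7 on the BM arrays. Of 15 measured macrophage genes, 0 were higher and 1 (Cd163) lower at 4-fold, with a median of 0.14 and a sum of 585 on the Spl array, against 940.3 and 1003 on the BM arrays. The complement genes C1qa, C1qb and C1qc were dim on all 3 arrays, and Cd163 stood at 117 on the Spl array, against 557 and 618 on the BM arrays.

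Of 12 measured monocyte genes, 1 (Cd14) was 4-fold higher and 2 (F13a1 and Fn1) were lower in Spl, with a median of -0.40 and a sum of 16919 on the Spl array, against 26579.6 and 26807 on the BM arrays. With median scaling 1 was higher and 6 were lower at 4-fold, and the median was -1.77. F13a1, the A chain of coagulation factor XIII, stood at 31.4 on the Spl array, against 2717 and 2804 on the BM arrays (-5.46), the second largest fall. Fn1, which encodes fibronectin, stood at 146 on the Spl array, against 2098 and 2133 on the BM arrays (-3.59). Ccr2 and Csf1r remained high in both groups, as given above. Of 9 measured erythroid genes, 0 met the 4-fold rule and 1 was lower at 2-fold, with a median of 0.05 and a sum of 938 on the Spl array, against 2599 and 2794 on the BM arrays. That gene was the transferrin receptor Tfrc, at 776 on the Spl array, against 2499.5 and 2657 on the BM arrays, a gene that dividing cells also use, while Hba-a1 was dim, at 11.05 on the Spl array, against 2.44 and 2.40 on the BM arrays. Of 8 platelet genes, 0 met the 4-fold rule and 1 (Itgb3, at 442 on the Spl array, against 209.8 and 185 on the BM arrays) was 2-fold higher, with a median of 0.10 and a sum of 676 on the Spl array, against 427 and 388 on the BM arrays. Of 9 mast cell and basophil genes, 0 differed 2-fold, with a median of -0.02 and a sum of 187 on the Spl array, against 114 and 162 on the BM arrays. The part of other cells in the differences above was not tested.

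Ranks within each array place the Spl array beside the rest of the series without any scaling. Il1b stood at percentile 99.3 of the Spl array, against 44.8 and 50.6 on the BM arrays, and between 37.2 and 51.4 on the other progenitor arrays. In the cultures it stood at percentile 90.9 of CD11c+ cells with GM-CSF, 91.8 of adherent cells with GM-CSF and 65.9 of adherent cells with M-CSF, and in monocytes at 72.0, 78.1 and 79.0 after 0, 24 and 48 hours. The Spl array thus had the highest rank of Il1b in the series. Cd83 stood at percentile 99.1 on the Spl array, against 51.6 and 41.0 on the BM arrays, and it also ranked high in CD11c+ cells with GM-CSF (98.8) and in monocytes after 48 hours (95.6). Nr4a3 showed the same set of high arrays, with percentile 98.4 on the Spl array, 97.2 in CD11c+ cells with GM-CSF and 96.6 in monocytes after 48 hours, against 35.6 and 29.9 on the BM arrays. Id3 was high on the Spl array (98.1) and in monocytes after 24 and 48 hours (95.9 and 95.4) and 0 hours (72.9), against 14.7 and 16.2 on the BM arrays.

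Of the genes that were lower in Spl, Cdk1, Irf8 and F13a1 were set beside the rest of the series. Cdk1 stood at percentile 48.9 on the Spl array, against 97.5 and 97.6 on the BM arrays, and no other array of the series ranked it under 89.7. Irf8 stood at percentile 88.3 on the Spl array, against 99.6 on both BM arrays, and 2 other arrays ranked it lower, monocytes after 24 hours (81.7) and 48 hours (85.5). F13a1 stood at percentile 45.9 on the Spl array, against 98.5 and 98.6 on the BM arrays, and its next lowest rank was 79.2, in adherent cells with M-CSF. Kit, at percentile 94.0 on the Spl array and 63.9 and 63.7 on the BM arrays, was higher still in CMP (96.9 on both arrays) and GMP (95.6 and 96.5), and lower in CDP (89.6 and 88.5). Apart from the progenitor pairs, each of these arrays has no replicate, so their order is a description.

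**Figure D5:**
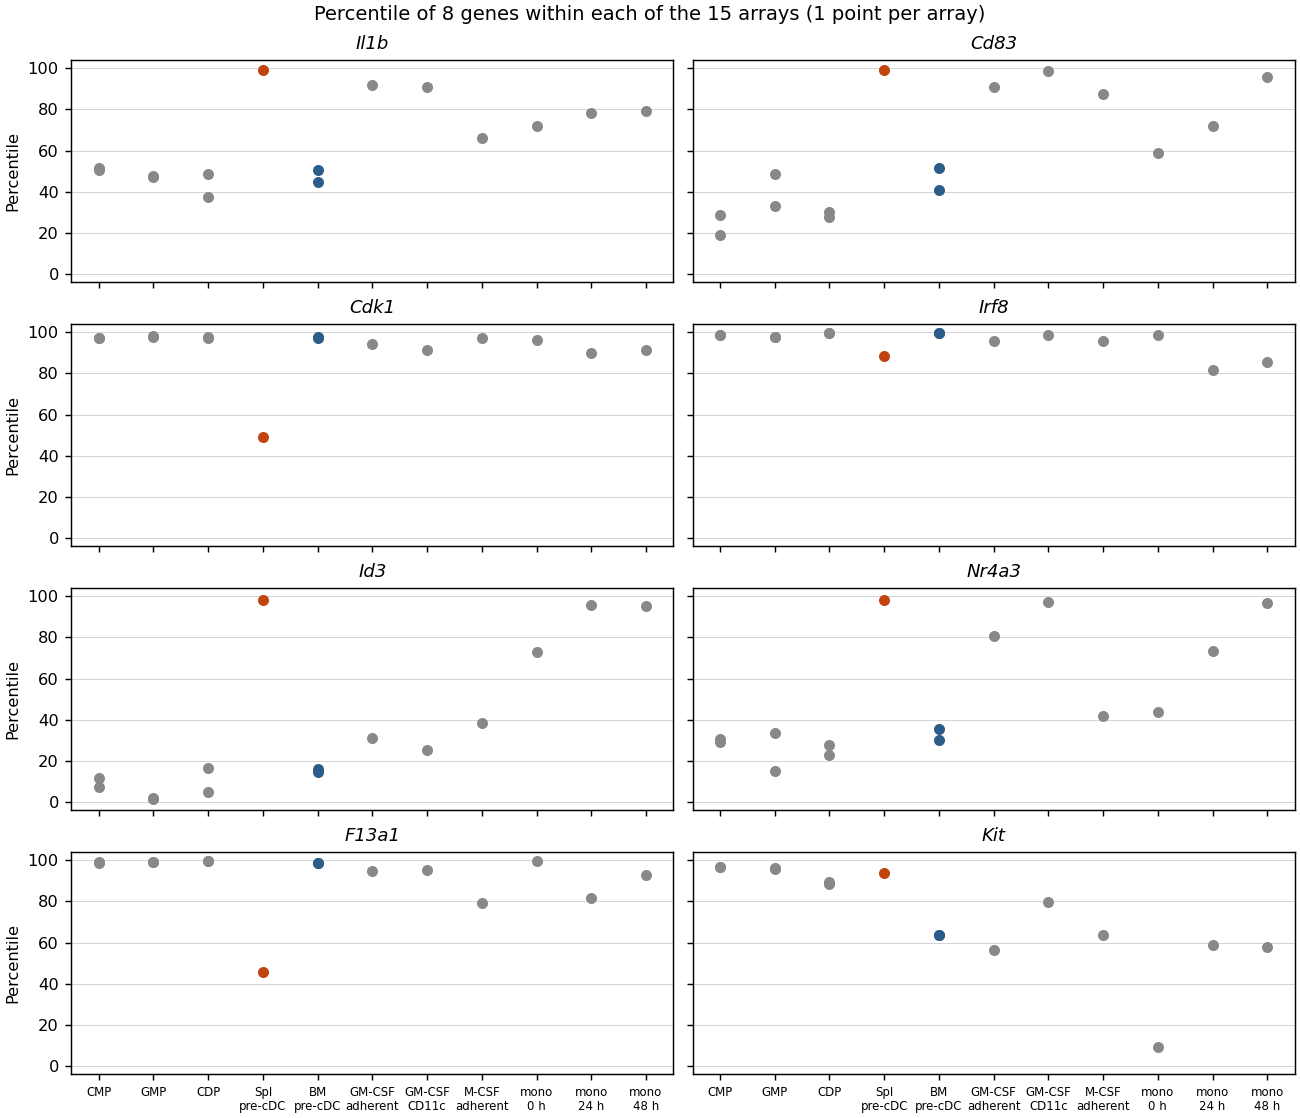
Percentile of 8 genes within each of the 15 arrays (1 point per array), with the Spl array in red and the BM arrays in blue. The Spl array ranks Il1b (99.3) and Cd83 (99.1) at the top and Cdk1 (48.9) and F13a1 (45.9) lower than any other array does.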

How the data were processed

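Gene expression was measured on 15 one-colour Affymetrix arrays, and 3 of them are compared here. Each probe set has 1 deposited intensity per array, on a linear scale. The labels name a 3' IVT labelling kit. The steps by which the authors turned scans into these values (background, summary, scaling) are not stated in the labels, and 0 columns were left without a sample. The number of arrays limits the precision.

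Of 45037 probe sets, 34945 had 1 gene in the platform annotation, 932 several and 9160 none; only the first kind was used. Each of 18193 genes took its brightest probe set, by the mean over the 15 arrays, 9183 genes had 1 probe set, and 18031 were matched to current symbols through the gene ID. The 3 arrays were quantile-normalized and transformed as log2(intensity + 32). With 1 Spl array there is no test between the groups alone. A gene met the rule of size when it differed at least 4-fold (or 2-fold) from the BM mean, lay beyond both BM arrays and had its higher value above the median of all probe sets. limma (version 3.58.1, R 4.3.3; lmFit and eBayes with an intensity trend, two-sided, Benjamini-Hochberg over all genes, threshold 0.05) was fitted to 9 arrays in 5 groups, quantile-normalized together, with 4 residual degrees of freedom; the lone Spl array is assumed to vary like the pairs. The fit was tested on simulated data in which the Spl array was given the spread of the pairs. That test cannot show whether the assumption holds for the real Spl array.

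There were 42 gene lists, with 740 symbols of which 676 were measured; several lists share genes. The members, markers and lists were chosen with earlier results of these data known. Named genes were the 12 largest differences in each direction, up to 4 members of each list in each direction that met the 4-fold rule (where none did, up to 2 at 2-fold), the markers Il1b, Cd83, Cdk1 and Irf8, and the genes of the gates; RIKEN clones, gene models, antibody segments, Xist and Y-linked genes were passed over. Other list members were named after their values were seen. Promoter windows of 250 bases came from RefSeq (GRCm38.p6), matched by symbol, and motifs were searched on both strands. Alternatives were other scalings, a smaller constant of 8 and a larger one, other filters, the mean of all probe sets, leaving out a BM array and a replicate block. Python 3.11.15 with matplotlib 3.10.9 drew the figures.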

Additional observations from a re-analysis of the deposited data

How the results depend on the processing

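The counts of genes 4-fold higher and lower in Spl (228 and 293) depended on scaling, since the Spl array has another shape: they were 102 and 1267 with median scaling and 972 and 115 on the deposited intensities. They were 461 and 473 with an added constant of 8, 100 and 121 with a constant 4 times larger than 32, 138 and 195 with the mean of all probe sets of a gene, and 1164 and 1234 at 2-fold. With quantile normalization of 9 arrays they were 233 and 313, with no filter on dim genes 228 and 293, and with a filter at the 75th percentile 226 and 293. Leaving out a BM array gave 223 to 228 higher and 274 to 281 lower. The limma counts (4210 and 4175) were 2435 and 7396 with median scaling, 4069 and 4356 with a constant of 8, and 3694 to 3905 and 3659 to 3835 without a BM array. The progenitor arrays share the numbers WT1 and WT2 in their titles, and the Spl array is titled WT1, like BM replicate 1. Between CMP, GMP, CDP and BM pre-cDC, correlations of the difference between WT1 and WT2 ran from -0.03 to 0.15. These low values do not show whether a number marks a shared animal or pool. The Spl array has no WT2 partner and could not enter them, so its pairing with BM replicate 1 was not tested. With the replicate number as a block, the limma fit with the replicate block called 4154 and 4220. All 84 named genes that met the 4-fold rule had the same direction under these alternatives and by rank. Ranks, other constants, quantile normalization of 9 arrays and leaving out a BM array could not turn it. For a gene beyond both BM arrays these settings keep the order of the Spl and BM values. Median scaling, the deposited intensities and the mean of probe sets could have turned it. Of the 84 genes, 69 still met 4-fold with median scaling, 71 on the deposited intensities, 58 with the larger constant and 65 with the mean of probe sets. Of the genes 4-fold lower, 183 had another probe set, and 269 of these other probe sets were above the median. Of the 269, 176 differed at least 2-fold the same way, 96 of them at least 4-fold, and 10 differed 2-fold the opposite way. Among the genes 4-fold higher, 139 had another probe set, and 204 of these others were above the median. Of the 204, 124 differed at least 2-fold the same way, 70 of them at least 4-fold, and 0 differed 2-fold the opposite way. Differences of dim genes are limited by the low end of each array.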
